A study of Homo sapiens with 2 samples.

Results

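The alcohol dehydrogenase (ADH) family of human cells comprises 7 genes that lie side by side on chromosome 4. They were taken here by gene name out of the 58174 genes listed in the RNA-seq tables of PLC-8024 cells, and all 7 were found, ADH1A, ADH1B and ADH1C of class I, ADH4 of class II, ADH5 of class III, ADH7 of class IV and ADH6 of class V. The family was selected on its TPM values, because the levels of ADH1A, ADH1B and ADH1C in these same libraries were known beforehand, so every value below is a description and none carries a test. PLC-8024 is a human hepatocellular carcinoma (HCC) cell line. PLC-8024-CTR cells carried a control vector and PLC-8024-GDF1 cells were transduced by a virus carrying human GDF1, a secreted ligand of the TGF-β superfamily. Per the methods, stably transduced cells were selected with puromycin, without a statement on whether this held for the control cells. Whether either line was 1 clone or a pool is not given in the sources used here. Each condition had 1 library, so the spread between replicates is unknown and neither errors nor p-values are given.

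ADH enzymes are zinc proteins that use NAD to turn alcohols into aldehydes or ketones, and aldehyde dehydrogenases carry the reaction on to the acid. The class I enzymes clear most ethanol in the liver, where they are among the abundant proteins of mature hepatocytes, and they also act on retinol. During liver development ADH1A is known to come on first, ADH1B later and ADH1C last. ADH4 is a liver enzyme that works at high ethanol levels, ADH5 acts in nearly every tissue on the glutathione adducts of formaldehyde and nitric oxide, ADH7 belongs to the lining of the stomach and upper gut, and ADH6 is the least studied of the family.

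Levels are given in TPM, a transcript abundance scaled by transcript length and by library size that can be compared between genes. Each change is the log2(TPM + 1) of the PLC-8024-GDF1 library minus that of the PLC-8024-CTR library, except where a plain ratio of TPM is named, and a gene was called when its change passed 2-fold. The added 1 TPM makes the changes of low genes smaller. TPM keeps no read depth, so no counting error can be attached to these values. The overexpressed gene itself was listed at 2.096 TPM in the control library against 4.64 TPM after transduction, and CERS1, whose exons cover GDF1, at 13.3 and 9612 TPM. Of the hepatocyte markers examined, 12 of 12 reached 1 TPM, and their summed level was 12568 TPM in PLC-8024-CTR against 8508 TPM in PLC-8024-GDF1, with 6 of the 12 lower by more than 2-fold (9.61% of all genes tested) and 0 higher (4.82%). With the TPM of PLC-8024-GDF1 multiplied by 1.15, which centres the ratios of all genes, 4 of the 12 were lower, without ALB (-0.998) and HNF4A (-0.84). The 1 called higher was the fibrinogen chain FGA (468 and 911 TPM, a change of 0.96 before and 1.17 after). With this rescaled TPM, 6.85% of all genes tested were called lower and 6.97% higher. Of the markers of other cell types, PTPRC, HBB, VWF, KDR, COL1A2 and DCN were listed at 0.0001 TPM, the value the tables use in place of 0, in both libraries. Of the 15 markers of fibroblasts, endothelium and blood, 3 reached 1 TPM. COL3A1, a collagen of fibroblasts, was listed at 3.22 and 1.23 TPM, and COL1A1 at 0.205 and 0.843 TPM. PECAM1, an endothelial adhesion molecule, was listed at 23.2 and 22.2 TPM and CD68, a macrophage marker, at 33.1 and 13.2 TPM. Of 5 markers of bile duct or progenitor cells, 4 reached 1 TPM, and KRT19 (4.46 and 10.9 TPM) and KRT7 (3.004 and 7.98 TPM) were called higher while the fetal liver protein AFP (31.4 and 9.75 TPM) was called lower. The part of these marker levels in the ADH values was not tested.

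Of the 3 class I paralogs, only ADH1C was called. ADH1C (ENSG00000248144, chromosome 4 of GRCh37, 100257654 to 100273903, minus strand) had 6.997 TPM in the PLC-8024-CTR library and 33.7 TPM in that of PLC-8024-GDF1. It was thus the class I gene with the higher level in both libraries and the only ADH gene called higher. Its change was 2.12 on the log2 scale and its plain TPM ratio was 4.81. In all, 14929 genes reached 1 TPM in one library or both, and 87 of them (0.583%) had a larger increase than ADH1C. ADH1A (ENSG00000187758, 100197526 to 100212160) went the other way, from 2.13 to 0.773 TPM, which is 2.75-fold lower as a plain ratio and a change of -0.82 with the added 1 TPM, short of the 2-fold line. ADH1B (ENSG00000196616, 100226128 to 100242558), the main ethanol-oxidising gene of adult liver, was near the bottom of the tables, with 0.0194 TPM in the control and 0.0763 TPM in PLC-8024-GDF1. Values as low as these may stand for very few reads and no direction is read from them. The ratio of ADH1C to ADH1A was 3.29 in PLC-8024-CTR and 43.6 in PLC-8024-GDF1, and ADH1C made up 76.5% and 97.5% of class I TPM.

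**Figure D1:**
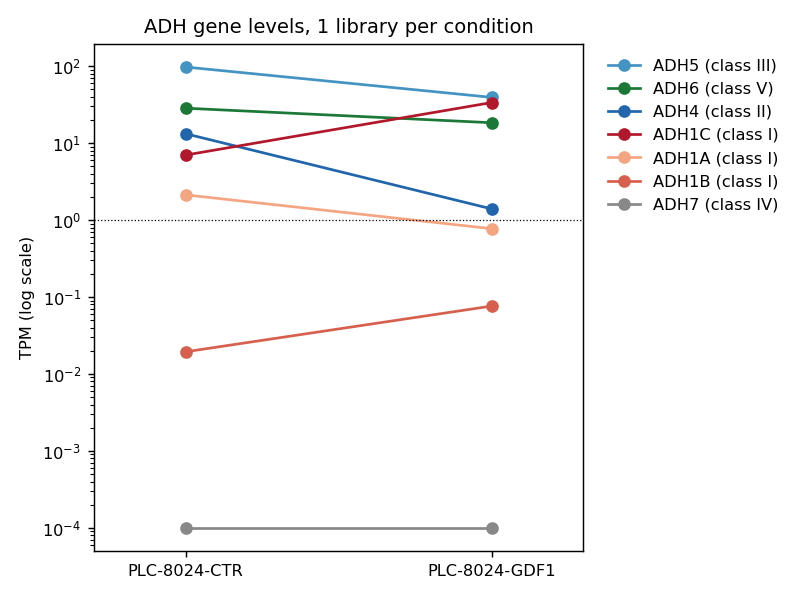
TPM on a log axis of the 7 ADH genes in the PLC-8024-CTR and PLC-8024-GDF1 libraries, 1 point per gene and library, with a dotted line at 1 TPM. ADH1C moves from place 4 to place 2 while ADH5, ADH6, ADH4 and ADH1A are lower in PLC-8024-GDF1, and ADH7 sits at 0.0001 TPM, the value that replaces 0.

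Among the other classes, the 3 genes that reached 1 TPM were all lower in PLC-8024-GDF1 cells. ADH4 (ENSG00000198099, 100044808 to 100078949) had 13.2 TPM in PLC-8024-CTR cells and 1.40 TPM in PLC-8024-GDF1 cells. This was the largest difference of the family, a 9.48-fold lower plain ratio and a log2 change of -2.57, and 82 of the 14929 genes (0.549%) had a larger decrease. ADH5 (ENSG00000197894, 99992129 to 100009952), the highest ADH gene in both libraries, had 97.5 TPM in PLC-8024-CTR cells and 39.4 TPM in PLC-8024-GDF1 cells, 2.48-fold lower with a log2 change of -1.29. A larger decrease was found for 744 genes (4.98%). ADH6 (ENSG00000172955, 100123795 to 100140694) was listed at 28.4 and 18.4 TPM, 1.54-fold lower with a log2 change of -0.60, and stayed within 2-fold. ADH7 (ENSG00000196344, 100333418 to 100356667), the gene of the stomach lining, was listed at 0.0001 TPM in both libraries.

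The order of the levels changed with it. In PLC-8024-CTR the order was ADH5, ADH6, ADH4, ADH1C, ADH1A, ADH1B and ADH7, and ADH5 stood 13.9 times above ADH1C. In PLC-8024-GDF1 the order was ADH5, ADH1C, ADH6, ADH4, ADH1A, ADH1B and ADH7, and ADH5 stood only 1.17 times above ADH1C. With 1 library per condition the spread of neighbours in either order is unknown, and the close pair ADH5 and ADH1C in PLC-8024-GDF1 cannot be ranked with any confidence. ADH1C and ADH4 changed places most clearly, since ADH4 had 1.89 times the TPM of ADH1C in PLC-8024-CTR and ADH1C had 24.1 times the TPM of ADH4 in PLC-8024-GDF1.

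Added up, the class I genes went from 9.14 TPM to 34.5 TPM, a log2 change of 1.81, and the 4 genes of the other classes from 139.2 TPM to 59.2 TPM, a log2 change of -1.22. Class I held 6.16% of all ADH TPM in PLC-8024-CTR and 36.8% in PLC-8024-GDF1. The whole family was listed at 148.3 TPM and 93.7 TPM, a log2 change of -0.66. ADH1C made up 76.5% of the class I sum in PLC-8024-CTR and 97.5% in PLC-8024-GDF1. ADH1A and ADH1B together went from 2.15 to 0.850 TPM, a log2 change of -0.77. Most of that was ADH1A, which reached 1 TPM only in PLC-8024-CTR. The rise of the class I sum was thus that of ADH1C. The low levels of ADH1A and ADH1B do not show whether class I as a whole differed from the other classes. Without ADH1C the other 6 genes summed to 141.3 TPM and 60.0 TPM.

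**Figure D2:**
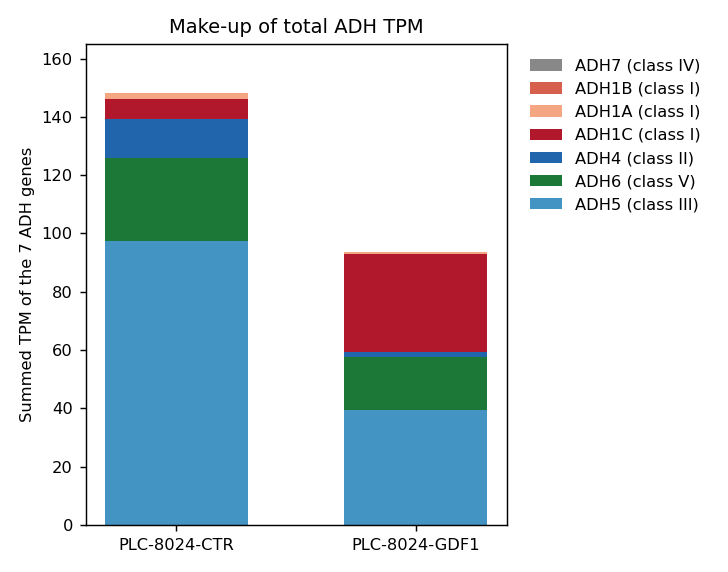
Summed TPM of the 7 ADH genes in each library, stacked by gene, from a baseline of 0. The total is 148.3 TPM in the control, most of it ADH5, and 93.7 TPM in PLC-8024-GDF1, where ADH1C takes 35.9%.

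Of the 7 members, 5 reached 1 TPM in one library or both, and ADH1A did so only in PLC-8024-CTR. Of these 5, 1 was called higher, against 4.82% of the 14929 genes, and 2 were called lower, against 9.61%. Since the family was chosen with its values known, nothing is read from these shares. More genes were lower than higher in PLC-8024-GDF1 as a whole. The median change of the 14929 genes was -0.20, and relative to it ADH1C stood at 2.31, ADH1A at -0.62, ADH6 at -0.40, ADH5 at -1.09 and ADH4 at -2.37. With the rescaled TPM, the higher genes among all called genes went from 33.4% to 50.4%, and each of these 5 members kept its direction and its side of 2-fold.

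The median change differed with the GC content of the transcript, and the ADH transcripts were low in GC. When the genes were split by GC content into 5 bins of equal size, the median change was -0.45 in the lowest bin and -0.33 in the next, against 0.11 in the highest. The longest transcript of ADH4 had 40.5% GC and lay in the lowest bin. ADH5 (41.5%), ADH6 (41.4%), ADH1A (45.5%) and ADH1C (45.9%) lay in the next. With a smooth GC trend subtracted, ADH5 was at -0.91 and no longer past 2-fold, while ADH4 was at -2.17 and ADH1C at 2.39. The trend was not centred, so subtracting it also took out the shift shared by all genes. It was -0.38 at ADH5, where the median change of all genes was -0.20. ADH1A and ADH1C both have a longest transcript of 1454 bases, and with the trend subtracted they were at -0.54 and 2.39. The part of GC content in the values of the ADH genes was not tested.

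**Figure D3:**
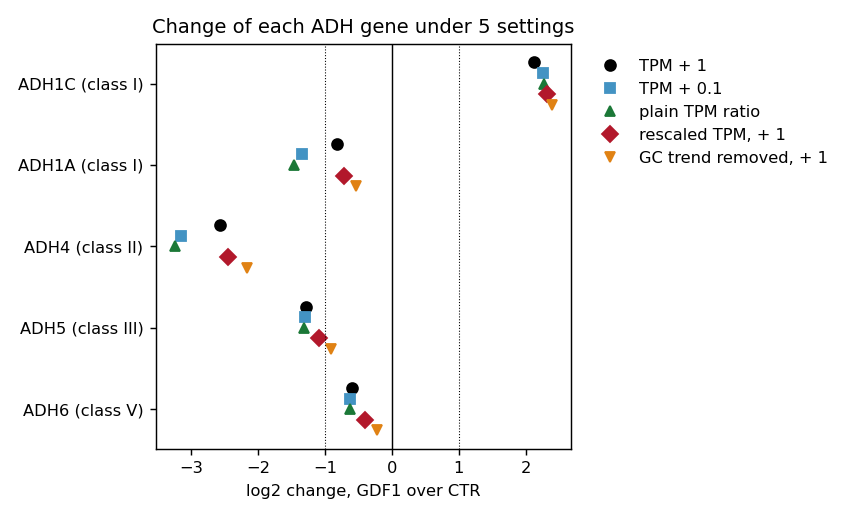
The log2 change of the 5 ADH genes with at least 1 TPM under 5 settings, with dotted lines at 2-fold. ADH1C and ADH4 stay beyond 2-fold under all 5, ADH1A passes it only with the smaller pseudocount or none, and ADH5 stops short of it only with the GC trend removed.

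Because class I genes are close copies, reads could be shared between them. Over their best alignments, the longest coding transcripts of the class I genes were 93.5% to 94.4% identical, while pairs that involve another class were 57.8% to 69.8% identical. Of the 100-base windows of the ADH1C transcript, 71 of 1355 (5.24%) also occurred in ADH1B and 0 in ADH1A. Of the ADH1A windows, 5 of 1355 (0.369%) occurred in ADH1B. At 50 bases the shares were larger. ADH1C shared 15.9% of its windows with ADH1B and 4.70% with ADH1A, and ADH1A shared 12.1% with ADH1B. ADH4, ADH6 and ADH7 shared no window of 50 bases with the transcripts of any other gene. ADH5 shared 13.8% of its 50-base windows with other genes, mostly with the processed pseudogene ADH5P4 (10.1%), and 1.14% of its 100-base windows. The methods name paired-end sequencing of size-selected cDNA fragments. The read length is not given in the sources used here, and how the authors treated reads that match several genes is not either. ADH1B, the gene with which ADH1C shared most, was under 0.1 TPM in both libraries, and the part of shared reads in the values of ADH1C and ADH1A was not tested.

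A long noncoding RNA gene, ENSG00000246090, runs on the opposite strand from 100009956 to 100222513 and spans ADH4, ADH6 and ADH1A. Its exons covered 262 of the 2231 exon bases of ADH1A (11.7%), 75 of the 4401 of ADH6 (1.70%) and 0 of those of ADH4, and they do not reach ADH1B or ADH1C. It had 0.214 TPM in the control library and 0.978 TPM in the PLC-8024-GDF1 library, where it stood above ADH1A. Whether reads were counted by strand is not given in the sources used here. Without strand, reads of this gene and of ADH1A cannot be told apart in the shared exons.

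ADH1C also stood apart from the genes around the cluster. The 7 ADH genes span 364539 bases, all on the minus strand, and 10 other protein-coding genes lie within 500 kb of them, of which 6 had at least 1 TPM. All 6 were lower in PLC-8024-GDF1, from -0.82 to -1.49 with a median of -0.87, and 2 of them passed 2-fold. Of all 14929 genes, 63.3% were below 0 and 9.61% were lower by more than 2-fold. MTTP (100485238 to 100545154), the microsomal lipid transfer protein that loads apolipoprotein B, was listed at 10.2 and 3.01 TPM, a log2 change of -1.49. LAMTOR3, a scaffold of the lysosomal mTORC1 platform, was listed at 6.31 and 2.51 TPM, a change of -1.06 that was -0.91 with the rescaled TPM, within 2-fold. The cap-binding factor EIF4E (-0.88), the methionine aminopeptidase METAP1 (-0.86), the tRNA methyltransferase TRMT10A (-0.86) and the chaperone DNAJB14 (-0.82) stayed within 2-fold. The remaining 4, TSPAN5, C4orf17, DAPP1 and AC083902.2, were under 1 TPM in both libraries. TSPAN5 was listed at 0.656 and 0.821 TPM and the others at 0.0001 TPM in both. Of the 11 expressed protein-coding genes in this window, ADH genes included, ADH1C was the only one that was higher. TRMT10A (1.63 and 0.453 TPM) and ADH1A reached 1 TPM only in PLC-8024-CTR. As genes that passed the minimum only there, they could not have come out higher.

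**Figure D4:**
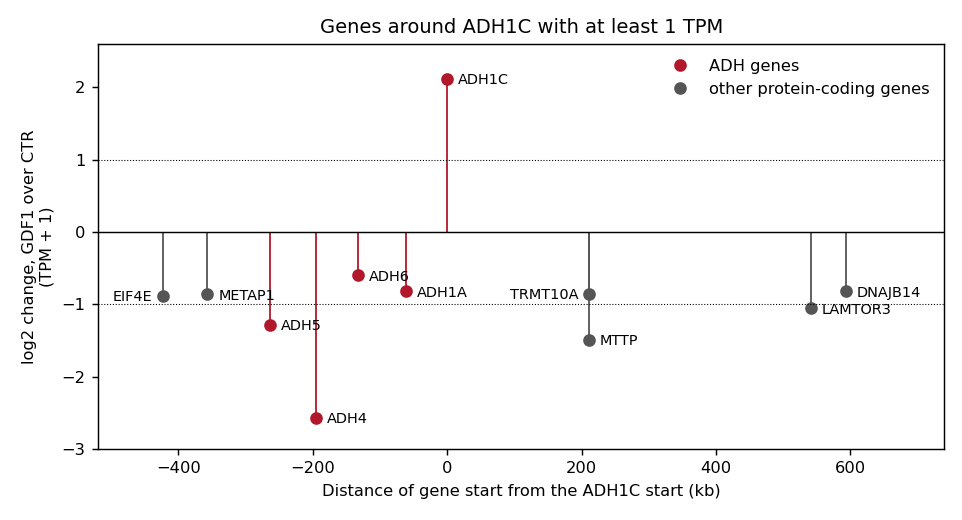
The log2 change of the 11 protein-coding genes with at least 1 TPM within 500 kb of the ADH cluster, by the distance of each gene start from that of ADH1C in kb. ADH1C is at 2.12 and the 10 others lie between -0.60 and -2.57.

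The 250 bases before the RefSeq start of each gene were then set side by side. They show how like each other the promoters of the class I genes are, of which only ADH1C was called. They also show how these differ from those of ADH4 and ADH5, the members called lower. The RefSeq table used (GRCh38.p14, another build than the hg19 of the TPM tables) held all 7 members. The class I promoters were 81.5% to 82.2% identical to each other and 45.5% to 55.0% in pairs that involve another class. The sequences are written 5′ to 3′ on the minus strand, the strand of the genes, and end at the base before the start. Capitals mark a match on either strand to one of 5 motifs, which are TATAAA for the site of TBP, GGGCGG for the GC box, CACGTG for the E box, CCAAT for the NF-Y site and CAGACA for the SMAD box. No printed matches overlap.
ADH1A, chr4:99290986-99291235: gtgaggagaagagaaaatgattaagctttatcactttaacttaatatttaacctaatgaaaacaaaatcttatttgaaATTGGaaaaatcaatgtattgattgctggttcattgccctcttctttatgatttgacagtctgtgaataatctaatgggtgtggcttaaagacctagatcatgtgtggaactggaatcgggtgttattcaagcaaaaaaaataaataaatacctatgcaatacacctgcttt
ADH1B, chr4:99321402-99321651: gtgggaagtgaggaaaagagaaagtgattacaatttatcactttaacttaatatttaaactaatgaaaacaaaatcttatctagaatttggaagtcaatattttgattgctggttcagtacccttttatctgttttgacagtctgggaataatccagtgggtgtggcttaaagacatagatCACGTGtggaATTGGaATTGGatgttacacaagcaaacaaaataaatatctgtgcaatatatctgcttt
ADH1C, chr4:99352747-99352996: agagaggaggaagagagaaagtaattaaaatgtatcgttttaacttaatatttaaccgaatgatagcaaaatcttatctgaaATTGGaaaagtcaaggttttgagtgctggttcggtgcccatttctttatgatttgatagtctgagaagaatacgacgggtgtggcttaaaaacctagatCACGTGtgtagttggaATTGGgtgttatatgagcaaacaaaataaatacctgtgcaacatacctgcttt
ADH4, chr4:99144298-99144547: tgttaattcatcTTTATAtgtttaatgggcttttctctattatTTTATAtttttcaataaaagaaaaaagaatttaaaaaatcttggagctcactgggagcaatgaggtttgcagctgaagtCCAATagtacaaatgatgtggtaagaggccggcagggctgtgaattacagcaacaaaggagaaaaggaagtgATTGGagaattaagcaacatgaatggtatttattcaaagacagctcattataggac
ADH5, chr4:99088789-99089038: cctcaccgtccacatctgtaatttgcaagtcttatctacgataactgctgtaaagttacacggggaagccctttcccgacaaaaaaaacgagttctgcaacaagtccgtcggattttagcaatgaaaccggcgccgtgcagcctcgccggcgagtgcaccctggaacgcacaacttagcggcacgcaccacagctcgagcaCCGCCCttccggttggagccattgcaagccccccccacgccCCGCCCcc

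ADH1C and ADH1B both held the E box, a site of the USF factors, at position -69 from the start, and it was found in no other member and in 6.49% of the 27305 promoters of the table. ADH1A had no match to the E box letters in its window. CCAAT letters were found in all 3 class I windows and in ADH4, and in 33.0% of promoters. ADH5 held 2 GC boxes, letters found in 42.3% of promoters. TATAAA was found in ADH4, at -238 and -207, and in the first listed window of ADH7, at -212 and -93 (11.1% of promoters). These matches were all on the strand opposite to the gene. The ADH6 window held none of the 5 motifs, and the letters CAGACA were in no member's window (13.6% of promoters). Shorter forms of the SMAD box were not searched. The ADH5 window had 58.0% GC and 21 CpG dinucleotides, above the median of 11 over all promoters. ADH1C had 6 CpG, ADH7 had 2 in the first of its listed windows, and ADH1A, ADH1B, ADH4 and ADH6 had 1 each. These are letter matches only, and no binding was measured.

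The genes of the reactions around the ADH enzymes were taken from 5 lists with 75 genes, of which 64 had at least 1 TPM. Of the 64, 1 was called higher (1.56%, against 4.82% of all genes tested) and 9 lower (14.1%, against 9.61%). These 2 background shares apply to each list that follows. With the rescaled TPM they were 6.97% higher and 6.85% lower, and of the 64 genes 2 were called higher and 6 lower. The median change of the 64 was -0.20, as over all genes. The aldehyde dehydrogenases, which act on the products of ADH, had 0 of 14 measured members called in either direction, with a median of -0.18. ALDH2, the mitochondrial enzyme for acetaldehyde, had 61.3 TPM in PLC-8024-CTR cells and 30.3 TPM in PLC-8024-GDF1 cells, a change of -0.99 just inside the 2-fold line. ALDH1A1, a cytosolic enzyme for retinaldehyde, was listed at 293 and 268 TPM, a change of -0.13. Both libraries therefore listed more ALDH1A1 than any ADH gene.

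Of the 8 measured enzymes that otherwise handle ethanol, acetate or formaldehyde, 1 was called lower and 0 higher, with a median of -0.49. It was CAT, catalase, which can oxidise ethanol in peroxisomes, at 36.3 and 11.5 TPM with a change of -1.57. CYP2E1, the microsomal ethanol-oxidising enzyme, was under 1 TPM in both libraries, at 0.753 and 0.692 TPM. ESD, the hydrolase that takes over the product of ADH5 in formaldehyde clearance, was listed at 42.9 and 33.6 TPM, a change of -0.35, beside the -1.29 of ADH5.

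Of the 18 measured genes of retinol and retinoic acid, 1 was called higher and 2 lower, with a median of -0.06. CRABP1, which binds retinoic acid in the cytosol, was listed at 1.55 and 5.65 TPM, a change of 1.38. RBP4, the plasma carrier of retinol, was listed at 1251 and 572 TPM, a change of -1.13 that was -0.92 with the rescaled TPM, within 2-fold, and CYP26A1, which breaks down retinoic acid, at 4.77 and 1.31 TPM, a change of -1.32. The other medium-chain dehydrogenases and reductases, the wider superfamily of the ADH genes, had 4 of 10 members called lower (9.61% of all genes) and 0 higher (4.82%), with a median of -0.47. With the rescaled TPM the mitochondrial reductase MECR was also called higher, at 1.04. The 4 were the sorbitol dehydrogenase SORD (3.91 and 0.674 TPM, change -1.55), the quinone reductase CRYZ (43.3 and 16.8 TPM, change -1.32), the prostaglandin reductase PTGR2 (3.07 and 0.880 TPM, change -1.12) and VAT1L (1.23 and 0.0632 TPM, change -1.07). SORD, PTGR2 and VAT1L reached 1 TPM only in PLC-8024-CTR.

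Of the 14 measured factors known to bind ADH promoters, 2 were called lower and 0 higher, with a median of -0.22. Among them was the hepatocyte nuclear receptor HNF4A, at 11.4 and 5.15 TPM with a change of -1.02, and with the rescaled TPM 0 of the 14 were called. USF1 and USF2, the factors of the E box, were listed at 103 and 112 TPM and at 195 and 180.2 TPM, within 2-fold. Of the C/EBP factors, CEBPA was listed at 140.8 and 126 TPM and CEBPB at 355 and 201 TPM, with changes of -0.16 and -0.82.

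**Figure D5:**
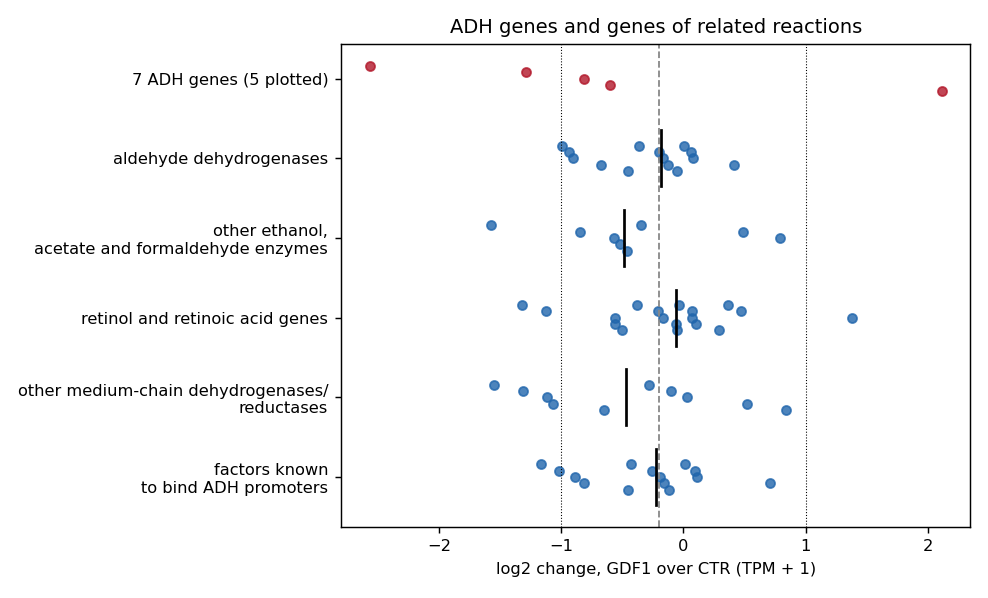
The log2 change of each gene with at least 1 TPM, for the ADH family and the 5 lists of related genes, with a black bar at the median of each of the 5 lists, dotted lines at 2-fold and a dashed line at -0.20, the median of all genes. The 5 ADH genes range from -2.57 to 2.12, and most listed genes lie within 2-fold.

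Among the 11792 protein-coding genes with at least 1 TPM, those nearest to ADH1C in the levels of both libraries were F11R, MPZL1 and NPW. F11R, a tight junction adhesion molecule, was listed at 6.58 and 36.0 TPM, a distance of 0.12 on the log2(TPM + 1) plane. The nearest genes to ADH4 were C1S, a complement protease at 11.7 and 1.25 TPM, SERPINC1, the plasma protein antithrombin at 14.5 and 1.72 TPM, and YIPF5. Among those nearest to ADH5 were TGIF1, at 94.8 and 42.0 TPM, and RRS1. This likeness rests on 2 libraries only.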

How the data were processed

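RNA-seq was made from 1 library of PLC-8024-CTR and 1 of PLC-8024-GDF1 cells. Per the labels and methods, the authors filtered reads with Trimmomatic 0.36, aligned them to hg19 with HISAT2 2.1.0 and used StringTie 1.3.3b to derive the deposited TPM values, 1 per gene and library, with 0.0001 in place of 0. The methods name a RefSeq annotation and the tables list Ensembl identifiers. TPM keeps no depth, so no counting error could be computed, and the read-count test of the methods was not repeated here.

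Members and lists were chosen with earlier results of these data known. Named genes were the 7 members, listed genes past 2-fold, ALDH2, ALDH1A1, CYP2E1, CAT and ESD, protein-coding genes within 500 kb, and the 3 genes nearest to ADH1C, ADH4 and ADH5. Marker genes, MECR, CERS1, USF1, USF2, CEBPA, CEBPB and ENSG00000246090 were named after their values were seen. Some genes and a motif that these rules name are not reported here. Genes needed 1 TPM in either library to be called. Positions, transcripts and GC came from GENCODE release 44 on GRCh37, which held 55726 of the identifiers. Promoter sequences came from RefSeq. The GC trend was a lowess fit (span 0.3, 14640 genes). Alternatives were pseudocounts of 0.1 and none, rescaled TPM, minimums of 5 TPM and none, and class I added up. Python 3.11.15, pandas 2.3.3, numpy 2.4.6, statsmodels 0.14.6, biopython 1.88 and matplotlib 3.10.9 were used. The calling code was run on simulated data with large planted changes in genes well above 1 TPM. That run does not bear on genes near 1 TPM or on the spread between libraries.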

Additional observations from a re-analysis of the deposited data

How the results depend on the processing

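No paired analysis was possible because there was a single library of each line, and for the same reason no library could be left out. Of 48 values recomputed under the alternatives, 40 kept their direction and side of 2-fold, or stayed within 1.5 times for a count, and none reversed. ADH1A passed 2-fold at -1.35 with a pseudocount of 0.1 TPM and at -1.46 with the plain ratio, and ADH1B reached 1.97 with the plain ratio of values under 0.1 TPM. These follow from the pseudocount, which shrinks the changes of low genes. ADH5 was at -0.91 with the GC trend removed, and the cause was not tested. The listed related genes called higher were 2 in place of 1 with a pseudocount of 0.1 TPM, with the plain ratio (NFIC beside CRABP1 in both) and with rescaled TPM (MECR beside CRABP1). Those called lower were 5 in place of 9 with at least 5 TPM, because fewer genes were counted. No GC-corrected value was computed for ADH1B and ADH7, which were under 1 TPM, and no alternative value for ADH7, at 0.0001 TPM in both libraries. TPM gives no depth, which limits ADH1A and ADH1B most.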
